A study of Mus musculus with 3 samples.

Results

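The genes described here encode the alpha-1 subunits of voltage-gated calcium channels. There are 9 of them, chosen by name among 21631 protein-coding genes: Cacna1c, Cacna1d and Cacna1s of the L type, Cacna1a of the P/Q type, Cacna1b of the N type, Cacna1e of the R type, and Cacna1g, Cacna1h and Cacna1i of the T type. All 9 were found in the RefSeq gene table. A peak, meaning a region that the authors called as accessible chromatin, was counted for a gene when it shared at least 1 bp with the gene span plus 5 kb on each side (mm10). By this rule the 9 windows, which span 2412435 bp in all, held 1175 of the 622754 peaks of the v1 library, 1378 of 850991 in v2 and 992 of 512023 in v3.

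The alpha-1 subunit forms the pore and the voltage sensor of a calcium channel, and it decides the channel's type. L-type channels link depolarization to gene expression in neurons and to contraction in muscle, P/Q-, N- and R-type channels admit the calcium that releases transmitter at synapses, and T-type channels open near the resting potential and drive burst firing. Auxiliary beta and alpha2delta subunits bring the pore to the membrane and tune its gating.

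The data are 3 lists of peaks from whole brain of C57BL6 mice, 1 list for each of the preparations sciATACv1, sciATACv2 and sciATACv3, called v1, v2 and v3 here. In this single-cell ATAC-seq assay the transposase Tn5 tags open chromatin in nuclei with a barcode in 96-well plates, and a second barcode is added by PCR in a chip of 5184 nanowells. Neither what distinguishes the preparations nor the animals' age, sex and number is stated in the labels. The lists hold positions without reads or nuclei, so depth is unknown, and each version has 1 library without a replicate, so no test between versions was possible and no p-value is given. All intervals are 95% intervals that cover counting error only. A list made from many nuclei cannot tell apart fewer cells of a type and lower accessibility in each cell. All 20 marker genes of neurons, glia and endothelial cells had a peak at most 1 kb from either gene end in every library. So did 5 of 6 markers of muscle and liver. By the same rule 81.0%, 84.8% and 80.6% of all protein-coding genes had one in v1, v2 and v3. Such a peak therefore does not by itself mark the tissue.

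The annotated starts of the genes are shown first, because Cacna1c and Cacna1d each have an outer start poor in CpG dinucleotides and an inner start rich in them, and the accessible regions differ between them. RefSeq promoter sequences (GRCm38.p6, the same build as mm10) were present for 9 starts of 6 members and for none of Cacna1a, Cacna1g and Cacna1h. Starts are numbered from the 5′ end of the gene. The 250 bases before the start follow, 5′ to 3′, and capitals mark the GC box GGGCGG on either strand. Cacna1b is added as a CpG-rich start with a peak in every library, and Cacna1s, best known from skeletal muscle, as a start with a peak in v2 alone.
Cacna1c start 1, chr6:119196410-119196659, minus strand: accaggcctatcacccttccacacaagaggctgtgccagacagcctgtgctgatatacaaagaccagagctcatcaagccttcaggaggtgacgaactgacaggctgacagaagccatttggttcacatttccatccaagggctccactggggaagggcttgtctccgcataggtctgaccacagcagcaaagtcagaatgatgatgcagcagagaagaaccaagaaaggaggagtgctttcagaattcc
Cacna1c start 2, chr6:119108496-119108745, minus strand: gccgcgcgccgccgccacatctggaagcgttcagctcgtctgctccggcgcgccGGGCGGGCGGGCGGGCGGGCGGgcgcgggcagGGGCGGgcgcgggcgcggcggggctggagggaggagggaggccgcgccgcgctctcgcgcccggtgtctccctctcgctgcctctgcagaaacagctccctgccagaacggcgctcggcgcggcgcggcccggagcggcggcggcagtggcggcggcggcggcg
Cacna1d start 1, chr14:30491157-30491406, minus strand: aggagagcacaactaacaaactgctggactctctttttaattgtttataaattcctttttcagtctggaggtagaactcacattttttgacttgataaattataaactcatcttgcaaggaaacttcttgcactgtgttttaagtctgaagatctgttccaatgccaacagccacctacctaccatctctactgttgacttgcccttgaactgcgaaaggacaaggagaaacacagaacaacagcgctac
Cacna1d start 2, chr14:30353487-30353736, minus strand: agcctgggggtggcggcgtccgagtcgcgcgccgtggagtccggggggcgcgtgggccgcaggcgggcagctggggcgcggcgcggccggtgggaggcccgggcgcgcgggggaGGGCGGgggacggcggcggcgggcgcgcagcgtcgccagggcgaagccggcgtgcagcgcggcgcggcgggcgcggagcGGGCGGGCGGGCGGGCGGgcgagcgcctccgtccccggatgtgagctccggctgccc
Cacna1b start 1, chr2:24763153-24763402, minus strand: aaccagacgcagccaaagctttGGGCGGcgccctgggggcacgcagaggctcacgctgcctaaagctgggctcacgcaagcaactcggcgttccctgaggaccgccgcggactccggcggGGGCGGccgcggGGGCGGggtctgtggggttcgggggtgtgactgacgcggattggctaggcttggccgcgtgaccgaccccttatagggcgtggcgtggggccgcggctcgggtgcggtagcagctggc
Cacna1s start 1, chr1:136052561-136052810, plus strand: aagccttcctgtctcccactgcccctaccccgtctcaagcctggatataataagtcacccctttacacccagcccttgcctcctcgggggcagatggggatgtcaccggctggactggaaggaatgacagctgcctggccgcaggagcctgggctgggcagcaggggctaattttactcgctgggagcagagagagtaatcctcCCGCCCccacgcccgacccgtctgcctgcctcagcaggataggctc

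The inner starts of Cacna1c and Cacna1d carried 48 and 50 CG dinucleotides in these 250 bases, against 2 at each outer start and a median of 10 over 21045 starts of protein-coding genes. Both strands were searched for the GC box, which reads CCGCCC on the other strand, and overlapping matches were counted. There were 6 matches before the inner start of Cacna1c and 5 before that of Cacna1d and 0 before each outer start. The Cacna1b start had 3 matches and the Cacna1s start 1. At least 1 match was present before 43.1% of all starts. The outer start of Cacna1d held 3 matches to TATAAA or its complement TTTATA, of which a pair overlap, and 11.7% of all starts hold any. All 3 lie in the distal part of the printed bases and not next to the start, and their use was not tested.

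Peaks lay over the CpG-rich starts in every library. The CpG observed over expected ratio, taken over the 250 bases before and 50 bases after a start, was 1.16 at the inner start of Cacna1c, the L-type channel gene of neurons and heart. The peak over that start was 1436 bp wide in v1, 2323 bp in v2 and 3271 bp in v3. At the inner start of Cacna1d, an L-type gene of neurons and pacemaker cells, the ratio was 1.18 and the peaks were 1192, 1344 and 2012 bp wide. The start of Cacna1b, the N-type gene of presynaptic terminals, had a ratio of 0.92 and peaks of 1872, 1881 and 2221 bp. That of the T-type gene Cacna1i had a ratio of 0.79 and peaks of 2103, 2045 and 1110 bp. Over all 10131 starts with a ratio of at least 0.6, a peak covered 97.2% in v1, 98.2% in v2 and 97.7% in v3, so the cover of these 4 starts is near the background.

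The CpG-poor starts were covered less evenly. The outer start of Cacna1c, with a ratio of 0.15, lay in a peak of 500 bp in v1 and of 652 bp in v2, and 73 bp from a peak of 981 bp in v3. The outer start of Cacna1d, with a ratio of 0.34, had no peak over it in any library, and the nearest was 1248 bp away in v1, 149 bp in v2 and 254 bp in v3. The Cacna1s start, with a ratio of 0.30, lay in a v2 peak of 3219 bp but 855 bp from the nearest v1 peak and 314 bp from the nearest v3 peak. Start 3 of Cacna1c, well inside the gene, had a ratio of 0.36 and peaks of 583, 2187 and 627 bp. The start of Cacna1e, the R-type gene, had a ratio of 0.48 and peaks of 1784, 3769 and 1405 bp. Of the 6605 starts with a ratio under 0.3, a peak covered 29.9%, 41.2% and 30.4% in v1, v2 and v3, and of the 4309 from 0.3 to 0.6 it covered 71.9%, 79.1% and 73.8%.

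**Figure D1:**
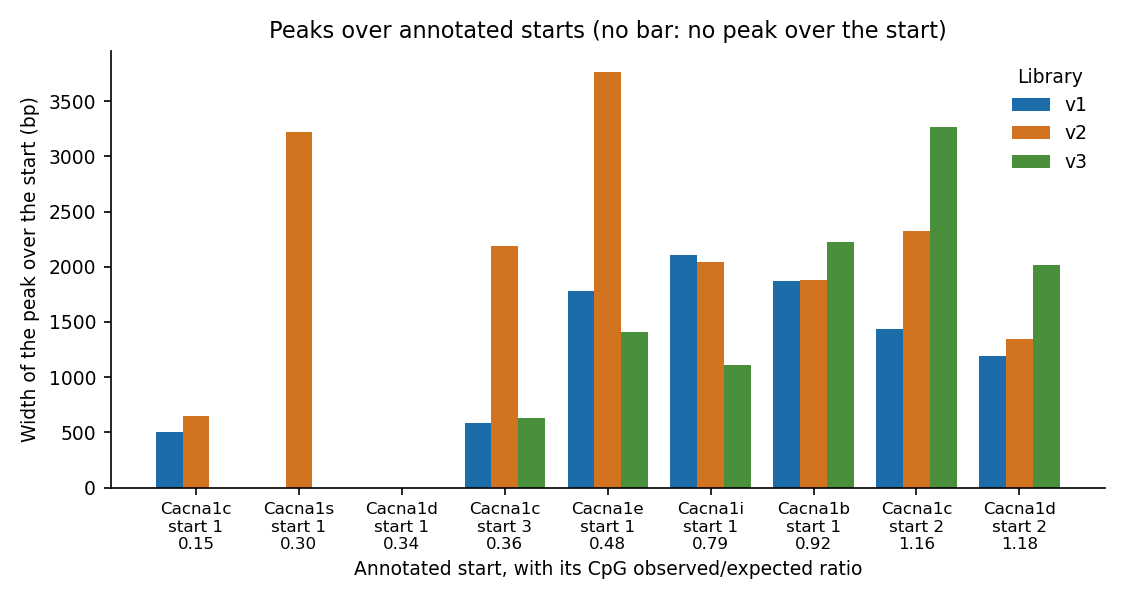
Width in bp of the peak that covers each annotated start of 6 alpha-1 genes (bars, by library), in order of the CpG observed over expected ratio printed under each start. The 4 starts with ratios from 0.79 to 1.18 have a peak in all 3 libraries, as do Cacna1c start 3 (0.36) and Cacna1e start 1 (0.48). Cacna1c start 1 has a peak in v1 and v2, Cacna1s start 1 in v2 alone and Cacna1d start 1 in none.

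By gene, all 6 members with an annotated start had a peak within 1 kb of one in each library, against 77.0% (v1), 81.7% (v2) and 76.6% (v3) of the 17274 protein-coding genes with a start in the table. All 9 had a peak within 1 kb of either end of the span, against 81.0%, 84.8% and 80.6% of the 21631 protein-coding genes. Taking annotated starts where the table has them and either end otherwise, all 9 again had one. The longer lists were also thinned to the length of the shortest, in 1 random draw. In that draw it was 8 members in v1 and 6 in v2, where Cacna1b, Cacna1e and Cacna1i had none. The shares of the genes in the same thinned lists were 69.8% and 61.4%. For the other 3 members either end of the span was examined, since the table gives no strand for them. Cacna1a, the P/Q-type gene of Purkinje cells and fast synapses, had a peak over its low-coordinate end in every library (613, 635 and 1026 bp in v1, v2 and v3), and the nearest peak to its other end was 107, 94 and 98 bp away. Cacna1g, a T-type gene of the thalamus, had a peak over its high-coordinate end, 704 bp wide in v1, 2212 bp in v2 and 3057 bp in v3. Cacna1h, also of the T type, had no peak within 1 kb of its high-coordinate end in any library, and the nearest peaks were 1718, 1724 and 1630 bp away and 1403, 1967 and 4720 bp wide. Its other end lay in a peak in v1 and v3 and 19 bp from one in v2.

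The number of peaks per window followed gene length, and the density per 100 kb of window was similar among members. Among L-type genes, Cacna1c (chr6:118587240-119197384) held 309 (v1), 363 (v2) and 235 (v3) peaks, which is 49.8, 58.5 and 37.9 per 100 kb. Cacna1d (chr14:30039941-30491156) held 201, 238 and 187 peaks, or 43.6, 51.6 and 40.5 per 100 kb. Cacna1s (chr1:136052806-136119822) held 26, 35 and 28 peaks, or 33.8, 45.4 and 36.4 per 100 kb. It had the lowest density of the 9 in v1 and v2, with an interval in v1 of 22.1 to 49.5.

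Of the genes of the presynaptic types, Cacna1b and Cacna1e had the highest densities of the family in v1 and v3, while Cacna1a ranked lower. Cacna1a (chr8:84338631-84640251) held 136, 170 and 128 peaks, or 43.6, 54.6 and 41.1 per 100 kb. Cacna1b (chr2:24603860-24763200) held 95, 104 and 82 peaks, or 56.1, 61.4 and 48.4 per 100 kb. Cacna1e (chr1:154390806-154884785) held 277, 310 and 230 peaks, or 55.0, 61.5 and 45.6 per 100 kb. In v2 Cacna1h ranked first and Cacna1e and Cacna1b next.

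The T-type genes varied in rank between libraries, and Cacna1h was the highest of the 9 in v2 and the lowest in v3. Cacna1g (chr11:94408391-94474400) held 37, 43 and 29 peaks, or 48.7, 56.6 and 38.2 per 100 kb. Cacna1h (chr17:25374285-25436334) held 33, 46 and 26 peaks, or 45.8, 63.8 and 36.1 per 100 kb. Cacna1i (chr15:80287238-80398292) held 61, 69 and 47 peaks, or 50.4, 57.0 and 38.8 per 100 kb. No pair of neighbours in the order of densities had a density ratio whose interval excluded 1 in any library. Of the highest against the lowest member, the v1 ratio was 1.66 (Cacna1b over Cacna1s, interval 1.07 to 2.67), the v2 ratio 1.40 (Cacna1h over Cacna1s, 0.886 to 2.25) and the v3 ratio 1.34 (Cacna1b over Cacna1h, 0.854 to 2.17). These pairs and the neighbours were picked by rank from the same densities, and the intervals are not adjusted for that. No conclusion on the spread among members is drawn from them.

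Summed by type, the L-type windows had v1, v2 and v3 densities of 46.3 (42.4 to 50.4), 54.9 (50.7 to 59.3) and 38.8 (35.3 to 42.6) peaks per 100 kb. The P/Q-, N- and R-type windows had 51.6 (47.2 to 56.3), 59.3 (54.6 to 64.3) and 44.7 (40.6 to 49.0), and the T-type windows 48.7 (40.7 to 57.8), 58.7 (49.9 to 68.6) and 37.9 (30.9 to 46.0). The intervals of the 3 types overlapped in every library. In v1 and v3, however, the L-type density itself lay below the interval of the P/Q-, N- and R-type windows, as did the T-type density in v3. Ratios between types were not computed, so the overlap does not show that the types are alike. The order of the libraries, v2 above v1 above v3, held for 8 of the 9 genes, with Cacna1s as the exception, and it is that of the sizes of the lists. After the longer lists were thinned by a random draw to the length of the shortest, the median over the members was 38.2, 35.5 and 38.8 per 100 kb in v1, v2 and v3.

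**Figure D2:**
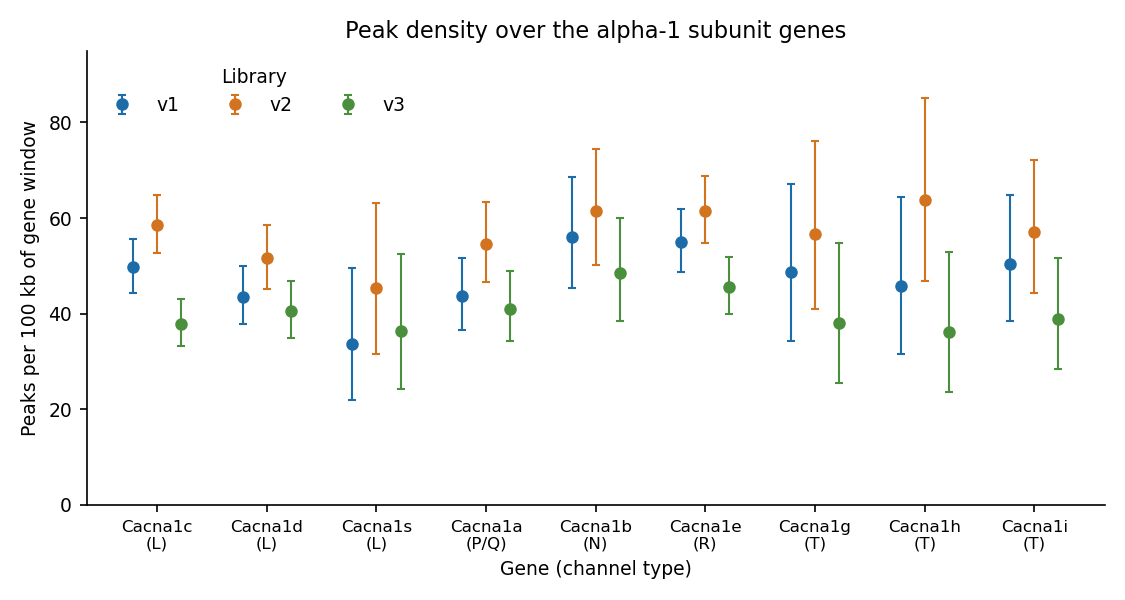
Peaks per 100 kb of gene window for each alpha-1 gene and library (points) with exact Poisson 95% intervals (bars). Values run from 33.8 for Cacna1s in v1 to 63.8 for Cacna1h in v2, and the intervals of neighbouring genes overlap.

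Set against other protein-coding genes whose window is within a factor of 2 of the same length, Cacna1b lay at the 85.9th percentile of peak density in v1, the 75.7th in v2 and the 82.8th in v3. Cacna1e lay at the 83.7th, 75.3rd and 78.8th. Cacna1s lay at the 44.2nd, 37.4th and 57.0th, and Cacna1d at the 48.3rd, 41.4th and 60.5th. The median over the 9 members was the 70.5th percentile in v1, the 67.6th in v2 and the 60.5th in v3, with 7, 6 and 9 members above the 50th. Peaks covered 39.3%, 51.6% and 40.8% of the median member window, against 23.5%, 35.8% and 27.8% over all protein-coding genes, which include many shorter ones. Few of these peaks also touched another protein-coding gene, at most 10.9%, in Cacna1h in v2, where the flank reaches Tpsg1.

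Within Cacna1c and Cacna1d, the stretch between the outer and the inner start held few peaks. This stretch was examined after the profile of coverage along the genes had been seen, so its values are a description. The inner start of Cacna1c lies 88.9 kb from the 5′ end of the span. Upstream of it, leaving out 5 kb around the start, the lists held 15 (v1), 26 (v2) and 17 (v3) peaks over 83.9 kb, or 17.9, 31.0 and 20.3 per 100 kb. Downstream there were 283, 326 and 209 peaks over 516 kb, or 54.8, 63.1 and 40.5 per 100 kb. The upstream density was thus 0.326 (0.180 to 0.547), 0.491 (0.316 to 0.732) and 0.501 (0.286 to 0.821) of the downstream density in v1, v2 and v3.

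Cacna1d had the same arrangement, with the inner start 137.7 kb from the 5′ end. Upstream of it lay 22, 40 and 30 peaks in v1, v2 and v3 over 132.7 kb, or 16.6, 30.1 and 22.6 per 100 kb. Downstream lay 168, 186 and 148 over 308.5 kb, or 54.4, 60.3 and 48.0 per 100 kb. The ratios were 0.305 (0.186 to 0.476), 0.5001 (0.346 to 0.707) and 0.471 (0.307 to 0.702). Peaks covered 11.4%, 21.3% and 17.1% of the upstream stretch and 41.7%, 55.1% and 48.3% of the downstream one. The step of 10 kb centred 55 kb from the 5′ end of Cacna1d, and the one centred 45 kb from that of Cacna1c, held no peak base in any library.

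The longest runs without a peak lay in these upstream stretches. In Cacna1c the longest runs of the lists spanned 20.8, 14.4 and 15.3 kb in order of version, and 14.1 kb were free of peaks in all 3 lists (chr6:119145618-119159735). In Cacna1d the runs were 32.0, 20.1 and 32.7 kb, with 12.5 kb free in all 3 lists (chr14:30430020-30442567). In Cacna1e, whose span is of like length, no run was longer than 5.91 kb. Its span also reaches 158.9 kb beyond the annotated start. There the density was 0.989 (0.753 to 1.29), 0.918 (0.708 to 1.18) and 0.788 (0.573 to 1.07) of that downstream, so the intervals include 1. Cacna1e is not a like case, as its only annotated start has a CpG ratio of 0.48 and no outer start is annotated. The 5′ end of its span lay in peaks of 1355, 1354 and 1274 bp in v1, v2 and v3.

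Such a sparse outer stretch was also present in other genes. A set of 22 protein-coding genes in the promoter data, among them Cacna1c and Cacna1d, each had an outer start with a CpG ratio under 0.6, an inner start of at least 0.6 and at least 50 kb on either side. Their median ratios of upstream to downstream density were 0.720 (v1), 0.813 (v2) and 0.898 (v3). The ratio was below 0.5 in 27.3% of them in v1 and in 18.2% in both v2 and v3. These shares include Cacna1c and Cacna1d in v1, Cacna1c in v2 and Cacna1d in v3. Lower ratios than that of Cacna1c were found in 3, 3 and 4 genes in v1, v2 and v3, where Cacna1d is among them in v1 and v3. Lower ratios than that of Cacna1d were found in 2, 4 and 2 genes, where Cacna1c is among them in v2.

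**Figure D3:**
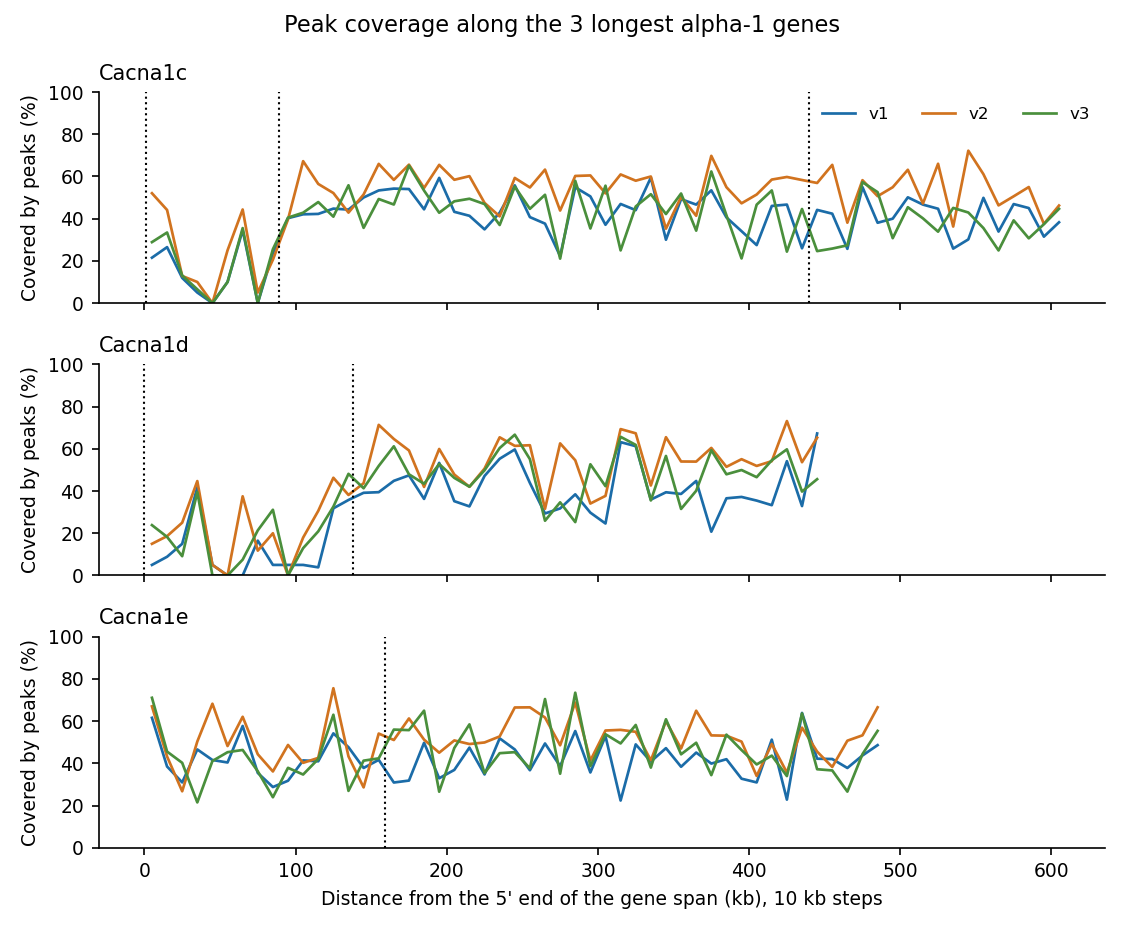
Percent of each 10 kb step covered by peaks along Cacna1c, Cacna1d and Cacna1e, by distance in kb from the 5′ end of the gene span, 1 line per library. Dotted lines mark annotated starts. Coverage upstream of the inner start, at 88.9 kb in Cacna1c and 137.7 kb in Cacna1d, is mostly low in every library, while Cacna1e shows no such stretch.

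The other members had their accessible regions spread along the gene. With the span cut into 10 equal parts, each part of Cacna1b held 6 to 11 peaks in v1 and v3 and 7 to 13 in v2, and each part of Cacna1e 21 to 32 in v1, 23 to 35 in v2 and 16 to 25 in v3. Cacna1s had a bare stretch inside the gene, as the fifth of these parts from the start held 0 peaks in v1 and v3 and 2 in v2. In Cacna1h the sixth part counted from the low coordinate was the most covered, with 69.4% in v1, 86.6% in v2 and 85.0% in v3.

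With any overlap of the full lists counted, most merged regions of the family were found in every library. Overlapping peaks of the 3 lists were joined into regions, of which the 9 windows held 1173. A peak of all 3 libraries was present in 651 of them, or 55.5% (exact Clopper-Pearson interval 52.6 to 58.4), 247 (21.1%) had peaks of 2 libraries and 275 (23.4%) of 1. Cacna1c, Cacna1e and Cacna1d held 313, 269 and 205 of the 1173, so the interval describes the pooled regions and not the 9 genes as a set. Over the genome 39.0% of 825954 regions had peaks of all 3 libraries, and in the windows of protein-coding genes of at least 50 kb it was 47.0% of 392014. The latter genes were not matched to the members in length. Regions of 1 library made up 37.8% over the genome and 30.5% in those long genes, and regions of 2 libraries 23.2% and 22.5%. Cacna1b had the highest share, 66.3% of 86 regions (55.3 to 76.1), followed by Cacna1a with 60.7% of 140 (52.1 to 68.9). The lowest were Cacna1g with 41.0% of 39 (25.6 to 57.9) and Cacna1s with 45.7% of 35 (28.8 to 63.4). Requiring each library to cover at least 50% of the region gave 41.5% over the family, and lists of equal length gave 33.8%, a setting in which fewer peaks are left to meet. These settings were not applied to other genes, so their values cannot be set against the 39.0% and 47.0%.

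**Figure D4:**
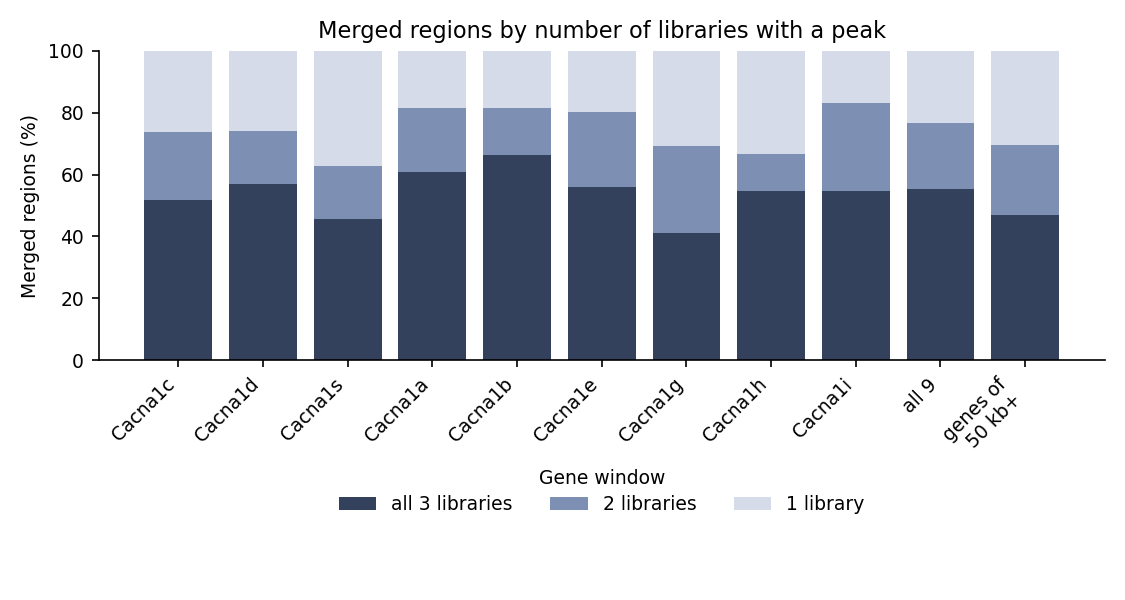
Percent of merged regions with a peak in all 3 libraries, in 2 or in 1, for each alpha-1 gene, for the 9 together and for the windows of all protein-coding genes of at least 50 kb. The share in all 3 libraries ranges from 41.0% in Cacna1g to 66.3% in Cacna1b, against 47.0% for the genes of at least 50 kb.

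The widest region shared by all libraries lay at an annotated start in 2 members. In Cacna1c it was the region over the inner start, 5628 bp at chr6:119104149-119109776. In Cacna1e it covered the annotated start, 4325 bp at chr1:154723040-154727364. In other members it lay inside the gene and away from any annotated start: 5918 bp in Cacna1d at chr14:30166746-30172663, 181 kb from the nearest start, 5056 bp in Cacna1b at chr2:24675993-24681048, and 6460 bp in Cacna1i at chr15:80302202-80308661, 15.0 kb from the start. In Cacna1s it was 4749 bp at chr1:136074732-136079480, 21.9 kb from the start, and v1 peaks covered 51.4% of it against 89.8% for v2 and 84.1% for v3. For the genes without an annotated start in the table it was 6015 bp in Cacna1a (chr8:84612526-84618540), 6179 bp in Cacna1g (chr11:94440114-94446292) and 5059 bp in Cacna1h (chr17:25404032-25409090). Cover of the widest region was also uneven in Cacna1i, at 47.9%, 90.7% and 42.2% in v1, v2 and v3. In Cacna1g it was 52.1%, 87.9% and 62.5%. In the members other than Cacna1s, Cacna1i and Cacna1g, each library covered at least 72.5% of it. Exons were not annotated in the sources used here.

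Regions of 1 library came mostly from the longest list, in the family as over the genome. Of the 275, 181 (65.8%) had a v2 peak, 65 (23.6%) a v3 peak and 29 (10.5%) a v1 peak, against 69.1%, 17.9% and 12.9% of such regions over the genome. The widest of v1 was 938 bp in Cacna1e, that of v2 1379 bp in Cacna1s and that of v3 1353 bp in Cacna1d, and in Cacna1h and Cacna1s no region had a v1 peak alone.

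The 9 windows held a smaller share of all peaks in v2 than in the other lists. The share was 0.162% in v2 (exact Clopper-Pearson interval 0.153 to 0.171), against 0.189% in v1 (0.178 to 0.200) and 0.194% in v3 (0.182 to 0.206). The v2 interval lay below both others, while the intervals of v1 and v3 overlapped. A share ratio is the gene's peaks as a share of its list, divided by the same share in the other list. None of the 9 members passed a ratio of 1.5 in either direction in any pair. The share of the 9711 protein-coding genes with 30 or more peaks over the 3 lists that did was 10.1% in v2 over v1. It was 16.2% in v3 over v1 and 18.1% in v3 over v2. With 9 members and shares of this size, a count of 0 is not read as a trait of the family. The share among genes with at least 300 peaks was not computed. In the 1 random draw that thinned the lists to equal length, 1 member passed 1.5, Cacna1d at 1.52 in v3 over v2. This lay inside its interval in the full lists, 1.07 to 1.59, and other draws were not made. The long genes have many peaks and so small counting error in these ratios. For v2 over v1 the median log2 share ratio of the members was -0.22, against -0.09 over those 9711 genes and -0.20 over the 812 genes with at least 300 peaks, and 8 of 9 members were below a ratio of 1, against 61.2% of the genes. For v3 over v1 it was 0.01 against 0.09 and 0.03.

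Cacna1e was the member whose interval lay below 1 in v2 over v1, with a share ratio of 0.819 (0.694 to 0.967). Such an interval was found for 2.79% of the 9711 genes and for 23.5% of the genes with at least 300 peaks. Cacna1c stood at 0.860 (0.737 to 1.004) and Cacna1b at 0.801 (0.601 to 1.07), and Cacna1h, at 1.02 (0.638 to 1.65), was the 1 member above a ratio of 1. In v3 over v1 the ratios ran from 0.925 in Cacna1c (0.777 to 1.10) to 1.31 in Cacna1s (0.740 to 2.33), and no interval excluded 1, whereas 3.81% of the 9711 genes had an interval above 1 and 2.28% below.

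In v3 over v2, a pair that shares its libraries with the other pairs, 8 of the 9 members were above a ratio of 1, against 68.6% of the genes, with a median log2 share ratio of 0.30 against 0.19 over the 9711 genes and 0.21 over those with at least 300 peaks. The interval lay above 1 for Cacna1d at 1.31 (1.07 to 1.59) and for Cacna1e at 1.23 (1.04 to 1.47), which are 2 of the 4 members with at least 300 peaks, against 32.0% of such genes and 6.54% of the 9711. Measured by covered bases the median was 0.11, and without the peaks of 500 bp it was 0.086. The widths of the peaks differ, with a median of 798.5 bp in the member windows in v3, 698.5 bp in v2 and 500 bp in v1.

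**Figure D5:**
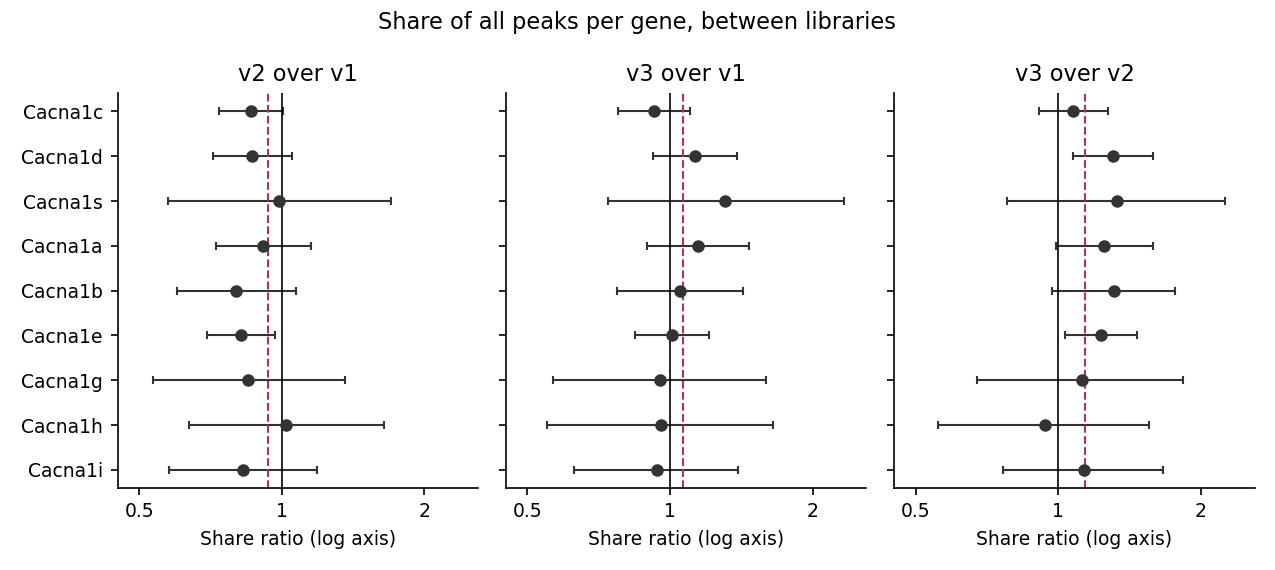
Share ratio of each alpha-1 gene for the 3 pairs of libraries (points, log axis) with exact conditional 95% intervals (bars). The solid line is a ratio of 1 and the dashed line the median of the 9711 protein-coding genes with at least 30 peaks. All points lie between 0.801 and 1.33.

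The genes of the auxiliary subunits, 4 beta, 4 alpha2delta and 8 gamma genes listed by role, had like densities, with medians of 48.4, 57.4 and 40.5 peaks per 100 kb in v1, v2 and v3 against 48.7, 57.0 and 38.8 for the alpha-1 genes. Of the 14 with at least 30 peaks, 1 passed a share ratio of 1.5 in v2 over v1, 0 in v3 over v1 and 3 in v3 over v2. Over the 9711 protein-coding genes with as many peaks, 10.1%, 16.2% and 18.1% did so in these pairs. The beta genes with the most peaks were Cacnb2 (223, 255 and 170 in v1, v2 and v3) and Cacnb4 (145, 173 and 117). Cacna2d3, an alpha2delta gene and the longest of them, held 447, 539 and 306 peaks and had a share ratio of 0.833 in v3 over v1 (0.718 to 0.965), while Cacna2d1, which encodes a target of gabapentin, held 262, 303 and 246 with 1.14 (0.956 to 1.36). The gamma genes with the most peaks were Cacng2, which encodes the AMPA receptor partner stargazin, with 77, 86 and 55, and Cacng3 with 53, 61 and 56. No auxiliary gene was without peaks.

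Cacna1f, the L-type alpha-1 gene of the retina, held 8 (v1), 14 (v2) and 11 (v3) peaks, or 21.0, 36.8 and 28.9 per 100 kb, below every one of the 9 members in v1, v2 and v3. The intervals are wide, at 9.07 to 41.4, 20.1 to 61.7 and 14.4 to 51.7, and its window of 38.1 kb is shorter than theirs. Among genes of like length Cacna1f lay at the 29.9th, 33.0th and 49.3rd percentile of density, so near the median in v3. It lies on the X chromosome. Its start was covered by a peak of 500 bp in v2, while the nearest peak was 1254 bp away in v1 and 849 bp in v3. In the muscle genes listed beside Cacna1s, Acta1 held 6, 6 and 5 peaks, Myh4 4, 9 and 9 and Ckm 9, 13 and 5.

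By the pair of log2 share ratios of v2 and v3 over v1, the genes nearest to the median of the members were Ccdc114, Exoc7 and Frzb, each with 12, 14 and 10 peaks and at a distance of 0.0048. They are the first by name of 9 genes at that same distance. With 3 libraries and few peaks per gene, this likeness describes counts only.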

How the data were processed

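The authors deposited peak positions, 1 list a library, without any score, signal or count. ArchR, MACS2 and the build mm10 are named, per the submitters' processing notes. Their versions, the thresholds and the aligner were not stated. Gene spans came from RefSeq (GRCm38.p6, the same build), and coordinates are 1-based. From the positions, peaks per window (gene span plus 5 kb), covered bases and regions merged over the libraries were computed with Python 3.11.15, numpy 2.4.6 and scipy 1.17.1. Share ratios were computed for all 21631 protein-coding genes, with exact conditional binomial intervals, and log2 ratios used a pseudocount of 0.5 peaks scaled to the list. Densities have exact Poisson intervals and shares exact Clopper-Pearson intervals. The computation of ratios was tested on simulated data. Each group is 1 library, so no test was run. The members and gene lists were chosen with earlier results of these data known. All 9 members are named, with the 2 auxiliary genes per class with the most peaks, Cacna1f and the 3 nearest genes in share pattern. Auxiliary genes and markers were named by role. Alternatives changed the flank, the width of peaks, the number of peaks, the measure, the overlap, the distance to a start and the range of like lengths.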

Additional observations from a re-analysis of the deposited data

How the results depend on the processing

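Of 72 alternatives for the results of the family and of the upstream stretches, 55 stayed in the range set around the reported value and 17 moved out of it. Of 135 share ratios of single members under other settings, 134 stayed inside the interval of the reported value, and they ran from 0.711 to 1.52. Genes with few peaks have wide intervals, such as 0.740 to 2.33 for Cacna1s in v3 over v1, so staying inside says little there. The 1 ratio outside its interval was Cacna1d in v2 over v1 with equal numbers of peaks, at 0.711. Cacna1d was also the 1 member past 1.5 in v3 over v2 with equal numbers of peaks, at 1.52. The equal numbers come from 1 random draw, and the spread between draws was not examined. Values at this setting therefore hold for that draw only. The median density per 100 kb was 38.2 in v1 and 35.5 in v2 with equal numbers of peaks, and 24.1, 33.4 and 26.3 in v1, v2 and v3 among peaks wider than 500 bp. Measured as covered bases it was 39.3% of the window in v1 and 51.6% in v2, which is another unit. Among wider peaks the median log2 share ratio was -0.15 in v3 over v1 and 0.086 in v3 over v2, and by covered bases it was 0.11 in v3 over v2. The share of regions in all 3 libraries was 41.5% with 50% cover in each, 33.8% with equal numbers and 48.1% among wider peaks. No share over other genes was computed under these settings. Where the peak had to cover the start or end itself, 8 of 9 members had one in each library. Cacna1s had none in v1 and v3, and Cacna1h none in v2. The shares of all protein-coding genes by this rule were 71.0%, 76.3% and 72.0% in v1, v2 and v3. Within 500 bp it was 8, 9 and 9 members, against 75.6%, 80.8% and 75.5% of the genes. With a narrower range of like lengths, the median density percentile was 67.4 in v1 and 61.7 in v2. Among wider peaks, a setting chosen after seeing the data, the Cacna1d ratio of upstream to downstream density in v2 was 0.299. Fewer peaks or another unit give part of these changes by construction, and any other cause was not tested. Depth is unknown, so the absence of a peak does not show closed chromatin. No paired analysis was possible because each version has 1 library.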
